A study of Mus musculus with 18 samples.

Results

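The genes described are 168 KRAB-type zinc finger genes measured in L929 cells, a mouse fibroblast line. They are the rows of the deposited count table whose name starts with Zfp, whose pathway annotation holds the KEGG entry for herpes simplex virus infection, and which had at least 10 counts in at least 3 of the 18 libraries. The table has 57180 rows; 196 met the name and pathway parts of the rule and 168 of these also met the count minimum. All 168 passed the filter on low counts of the fit and are counted in every statement below. The 28 that fell short of the minimum had at most 12 counts in any library, and 9 of them had none in all 18 libraries. No gene reached the minimum through 1 group only. The label holds for most of them: the table lists a KRAB domain for 160 and C2H2 zinc fingers for 167. The 8 without a listed KRAB domain are Zfp11, Zfp180, Zfp275, Zfp420, Zfp623, Zfp768, Zfp956 and Zfp974.

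KRAB zinc finger proteins bind DNA through an array of C2H2 fingers, each of which contacts a few bases, and recruit the co-repressor Trim28 (KAP1) through the KRAB domain. Trim28 in turn brings in the histone methyltransferase Setdb1, HP1 proteins and histone deacetylases, and the bound site becomes H3K9-methylated and silent. Many of the proteins bind retroelements, and the genes have multiplied in tandem clusters, so that neighbours resemble each other in sequence.

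There were 6 groups of 3 libraries. Mock cells received the DMSO solvent. AOA cells received aminooxyacetic acid, an inhibitor of transaminases including those that make aspartate, at 0.5 mM. AOA+Asp cells received the same with 20 mM aspartate. For both groups a 1 h AOA pretreatment is recorded, but their total time on AOA is not. Equal exposure to AOA with and without HT-DNA is therefore not assured. HT-DNA cells were transfected with herring testis DNA, a ligand of the cytosolic DNA sensor cGAS, at 0.5 µg/ml for 6 h. HT-DNA+AOA and HT-DNA+AOA+Asp cells were pretreated for 1 h with AOA, without or with aspartate, before the transfection. No group received aspartate alone, so its effect could be read only on top of AOA. The paper transfected HT-DNA with Lipofectamine, and no group is labelled as transfected without DNA. Effects of the DNA and of the transfection therefore cannot be told apart, and HT-DNA below stands for both. Libraries held 17901580 to 24057322 counts. Of 9 fibroblast markers 8 had a median of at least 1 CPM (counts scaled to a common library size with TMM factors) and Thy1 was near 0; Ptprc, Adgre1 and Cd3e, which define leukocytes, had 0 counts in every library, the leukocyte list reached 111 to 157 CPM in sum almost wholly through Cd68, and the epithelial and endothelial lists stayed below 0.68 CPM in sum. In bulk RNA, fewer cells that express a gene and less of its RNA per cell cannot be told apart. The replicates are independent cultures of 1 line.

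Zinc finger transcripts were of low abundance. The median of the 168 genes was 5.65 CPM over all libraries, against 21.2 CPM for the 14263 genes tested, with a range of 0.332 to 82.3 CPM; 15 genes lay below 1 CPM and 55 above 10 CPM. Their transcripts were poor in G and C, with a median of 42.1% in the longest transcript against 49.3% for all genes with a value, and somewhat longer (3584.5 against 3120 bases). The family's repetition also showed in the counting. Counts that were not whole numbers, as arise when reads are divided between genes, made up 38.1% of the values of these genes and 11.6% of the table. The median gene shared 3.17% of its 31-base sequences with other genes, but 19 genes shared more than 50%, among them Zfp708, Zfp433, Zfp960, Zfp600 and Zfp58, so values of these 19 cannot be assigned to 1 gene with certainty. Without them none of the numbers of zinc finger genes called higher or lower in the 8 comparisons, before the correction described below, moved by more than 1.5 times. Genes under 50% can also be affected. Zfp773 and Zfp944, described below, shared 27.3% and 23.1%, and 88.9% and 66.7% of their values were not whole numbers. They are not the only ones among genes named below. Zfp85 shared 38.7%, and 72.2% of its values were not whole. Values not whole made up 94.4% in Zfp9, 100% in Zfp689 and 83.3% in Zfp951.

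The tandem arrangement was plain in the GENCODE vM21 annotation. When neighbours at most 1000000 bases apart were joined, 14 chains of at least 4 genes held 112 of the 168. Chromosome 7 carried 50 of the genes, chromosome 17 carried 29 and chromosome 13 carried 18. The largest chain held 15 genes on chromosome 17, from Zfp160 to Zfp13, followed by 14 on chromosome 13, from Zfp712 to Zfp273, and 13 on chromosome 7, from Zfp84 to Zfp382.

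Some of their promoters held a common motif. RefSeq windows of 250 bases before the transcription start (GRCm38.p6) were found for 151 of the 168 genes, 175 windows in all. The core of the site bound by ZNF143 (Zfp143 in mouse), a zinc finger activator of many housekeeping promoters, searched on both strands, lay in 43 of the 175 windows, or 24.6%, against 1.92% of all 32851 windows. In windows of the 119 tested genes that have KRAB and C2H2 domains but lie outside the rule, it lay in 7 of 107 (6.54%). This motif was added after promoters of these genes had been read, so its excess is described on windows that prompted the search, and most of the windows lacked it. CCAAT boxes (CCAAT), bound by NF-Y, lay in 52.0% of the zinc finger windows and 33.8% of all windows, and the ETS site CCGGAAGT in 8% and 2.88%. TATA boxes (TATAAA) lay in 6.86% and 12.4%, and the AP-1 site TGANTCA in 2.29% and 6.75%. The interferon response element, searched because HT-DNA drives interferon, lay in 2.86% of the zinc finger windows and 2.98% of all windows. Windows of one chain descend in part from one ancestor and are not independent, and a match is a run of letters, not a bound site.

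A few of these windows are printed for genes among the largest changes below, to show the shared core and a promoter without it. Each is written 5′ to 3′ on the gene's strand and ends at the base before the start; capitals mark any of the motifs searched, and the ZNF143 core is the run of 12 capitals. Zfp773 lies at chr7:7136756-7137005 on the minus strand and holds the ZNF143 core and a CCAAT box. Zfp712 lies at chr13:67061171-67061420 on the minus strand and holds the core in reverse complement. Zfp273 lies at chr13:67813566-67813815 on the plus strand and holds a TATA box and the core in reverse complement. Zfp667 lies at chr7:6286330-6286579 on the plus strand and holds 2 Sp1 sites (GGGCGG), with a GC content of 68.8% against 42.0% in the Zfp273 window.
Zfp773: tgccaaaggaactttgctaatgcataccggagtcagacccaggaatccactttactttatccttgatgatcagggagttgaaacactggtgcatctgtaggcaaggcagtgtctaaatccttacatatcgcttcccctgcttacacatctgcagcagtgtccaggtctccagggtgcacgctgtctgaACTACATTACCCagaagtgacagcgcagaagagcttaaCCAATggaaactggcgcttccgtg
Zfp712: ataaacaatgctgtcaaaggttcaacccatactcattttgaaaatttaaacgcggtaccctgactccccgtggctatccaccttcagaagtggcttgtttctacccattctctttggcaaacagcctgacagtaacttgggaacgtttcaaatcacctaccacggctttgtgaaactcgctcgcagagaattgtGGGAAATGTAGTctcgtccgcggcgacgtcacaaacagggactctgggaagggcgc
Zfp273: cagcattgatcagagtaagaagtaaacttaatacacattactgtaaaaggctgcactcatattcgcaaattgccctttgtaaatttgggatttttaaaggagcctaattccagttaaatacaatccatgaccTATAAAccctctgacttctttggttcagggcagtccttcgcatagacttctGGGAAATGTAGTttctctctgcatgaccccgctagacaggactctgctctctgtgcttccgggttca
Zfp667: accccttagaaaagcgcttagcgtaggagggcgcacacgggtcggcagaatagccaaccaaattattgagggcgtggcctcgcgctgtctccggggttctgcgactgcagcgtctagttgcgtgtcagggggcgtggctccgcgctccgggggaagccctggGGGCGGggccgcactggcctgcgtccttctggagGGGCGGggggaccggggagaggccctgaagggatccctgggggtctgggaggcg

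Summed over the 168 genes, zinc finger RNA was lowest in HT-DNA cells and highest in AOA+Asp cells. The Mock libraries stood at 1591, 1591 and 1592 CPM and the AOA libraries at 1508, 1598 and 1636 CPM. AOA+Asp libraries reached 1747, 1861 and 1981 CPM, above every Mock library. HT-DNA libraries reached 1315, 1326 and 1370 CPM, below every Mock library. The HT-DNA+AOA group was the least uniform: its replicate 1 stood at 1870 CPM, replicate 2 at 1629 and replicate 3 at 1462. HT-DNA+AOA+Asp libraries lay at 1657, 1724 and 1745 CPM, above all 3 HT-DNA libraries.

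Part of this moved with a feature of the libraries that was not confined to zinc finger genes. In each library the log2 level of all genes was fitted as a smooth function of transcript GC content and length, and the value of that trend at the zinc finger genes was taken. Its median, relative to Mock, was -0.15 ± 0.06 (SD, n = 3) in HT-DNA libraries, where the genes' own median was -0.31 ± 0.02. In AOA+Asp libraries the trend was 0.12 ± 0.08 (SD, n = 3) beside 0.19 ± 0.11 measured. Within HT-DNA+AOA the trend was 0.05, -0.07 and -0.21 in replicates 1, 2 and 3, and the measured medians were 0.18, -0.01 and -0.20. Each comparison is therefore given as measured and after subtraction of the trend. The share of mitochondrial counts was also higher in the aspartate groups, at 3.35 to 3.57% in AOA+Asp and 3.21 to 3.27% in HT-DNA+AOA+Asp against 2.69 to 3.15% elsewhere, and its part in the results was not tested.

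**Figure D1:**
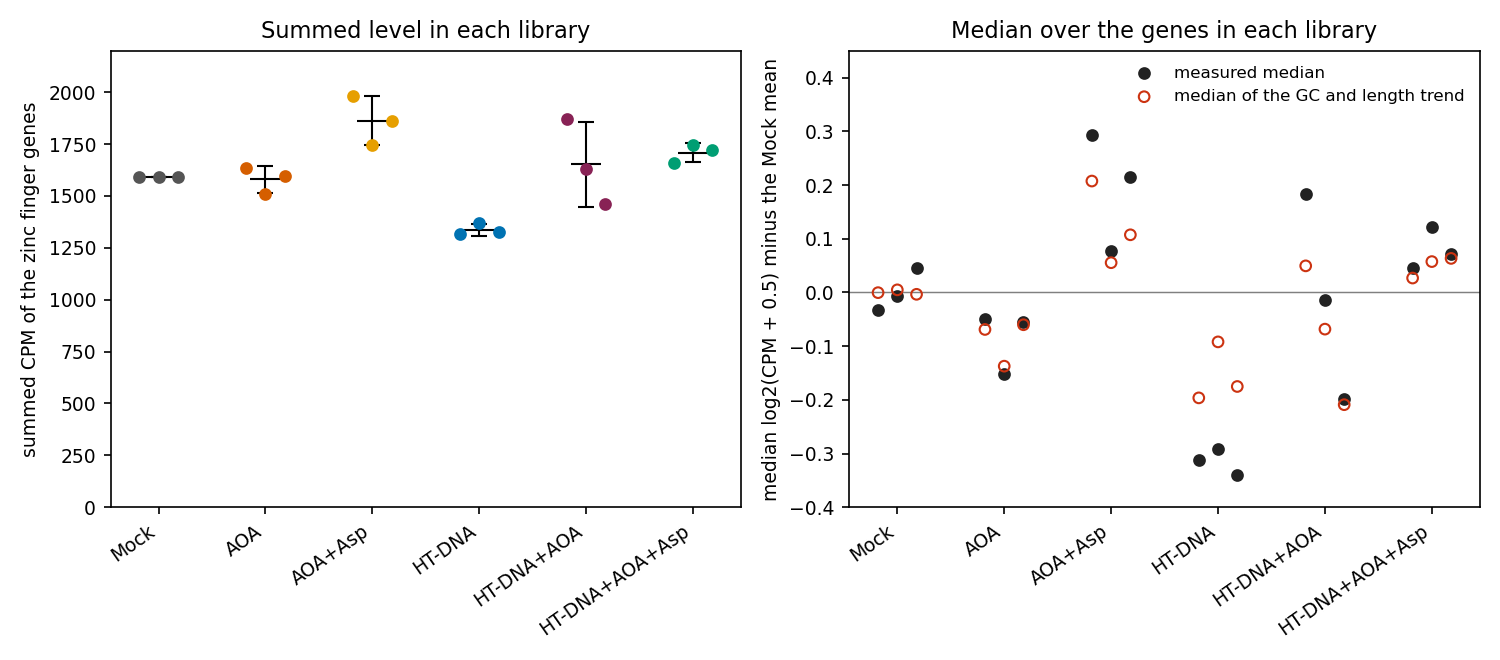
Left, summed CPM (linear axis from 0) of the 168 zinc finger genes in each library (points), with group mean and SD (bars); right, the median over the genes of log2(CPM + 0.5) minus the Mock mean (filled) and of the trend with transcript GC content and length (open). The 3 HT-DNA libraries lie at 1315 to 1370 CPM, below all Mock libraries, and the HT-DNA+AOA libraries spread from 1462 to 1870 CPM.

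With AOA alone zinc finger genes were called no more often than other genes, and in both directions. Relative to Mock, 23 of the 168 genes were higher and 37 lower at an adjusted p under 0.05 (edgeR's quasi-likelihood test across all genes), beside 22.5% and 23.2% of all 14263 genes tested. The median log2 fold change was -0.09 (all genes 0.02). After the GC content and length correction 33 were higher and 30 lower, beside 26.1% and 25.4% of all genes, and the median was 0.01. By base composition, among the 56 genes lowest in GC content 1 was higher and 21 lower, and among the 56 highest 17 were higher and 8 lower. With scaling by library totals, which set the median of all genes to -0.12, 18 were higher and 51 lower, beside 14.9% and 31.6% of all genes.

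Here and below, the largest rises and falls are those among called genes whose groups share no range and whose higher group averages 1 CPM or more, the first not being asked of the interaction. The largest falls were in Zfp273 (-1.57 ± 0.38), Zfp418 (-1.25 ± 0.31), Zfp667 and Zfp85 (-1.18 ± 0.25), and the largest rises in Zfp786, Zfp951 (0.91 ± 0.25), Zfp383 (0.86 ± 0.18) and Zfp777, as log2 fold change ± SE. Zfp667, known as Mipu1 from work on the ischaemic heart, read 2.37, 2.79 and 2.71 CPM in Mock and 0.983, 1.29 and 1.1 CPM in AOA (-1.21 ± 0.21, adjusted p = 1.3e-04). Zfp777, which rose, read 15, 16 and 14.4 CPM in Mock and 27.2, 22.4 and 26.7 CPM in AOA (0.75 ± 0.10, adjusted p = 1.2e-05). In both genes the AOA libraries lay entirely on one side of Mock. Zfp786, a neighbour of Zfp777 on chromosome 6, read 3.55, 2.88 and 3.13 CPM in Mock and 7.3, 5.58 and 5.29 CPM in AOA (0.92 ± 0.16, adjusted p = 1.4e-04), again without overlap. After correction the log2 fold changes of these 3 genes were -1.15, 0.76 and 0.88. Zfp944, on chromosome 17, read 11, 12.9 and 13.2 CPM in Mock and 4.97, 5.41 and 6.63 CPM in AOA (-1.13 ± 0.11, adjusted p = 2.4e-07), so that the highest AOA library was far below the lowest Mock library.

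As measured, aspartate added to AOA raised far more of the genes than it lowered. AOA+Asp minus AOA gave 71 higher and 13 lower, beside 23.4% and 22.8% of all genes, with a median log2 fold change of 0.36 (all genes -0.01). After correction 44 were higher (26.2%) and 23 lower (13.7%), beside 24.9% and 25.5% of all genes, and the median was 0.11. The share higher was then close to that of all genes, and the share lower stayed below it. Of the 37 genes lower with AOA, 33 were among those higher with aspartate, and 12 of the 23 genes higher with AOA were among those lower with aspartate. Both comparisons use the AOA libraries, so these counts are linked by construction. Here and below, joint calls in several comparisons were not counted over all genes, so no share stands beside them. Zfp944 stood at 13.2, 14.8 and 14.9 CPM in AOA+Asp (1.34 ± 0.11, adjusted p = 3.8e-08) and Zfp667 at 3.13, 2.74 and 2.19 CPM (1.24 ± 0.21, adjusted p = 1.0e-04). Zfp777 stood at 14.4, 17.2 and 15.8 CPM (-0.69 ± 0.10, adjusted p = 3.2e-05). In these 3 genes every AOA+Asp library was separated from every AOA library. The largest rise was in Zfp273, from 0.466, 0.172 and 0.814 CPM to 1.96, 1.66 and 2.44 CPM (2.12 ± 0.36, adjusted p = 1.1e-04), a low value that rests on as few as 4 counts in an AOA library and on a transcript with 40.3% shared sequence. The other large rises were in Zfp595 (1.70 ± 0.32), Zfp773 (1.34 ± 0.15) and Zfp933 (1.34 ± 0.19). The large falls besides Zfp777 were in Zfp951 (-1.02 ± 0.25), Zfp689 (-0.78 ± 0.16) and Zfp786 (-0.77 ± 0.16).

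Against Mock, cells with AOA and aspartate together had 13 zinc finger genes higher and 0 lower, beside 2.52% and 3.95% of all genes. At an unadjusted p under 0.05 in edgeR, 2 were lower, and with DESeq2 0 were lower at an adjusted p under 0.05. The median log2 fold change was 0.21 (all genes 0.01), and 146 of the 168 estimates were above 0. After correction 18 were higher and 3 lower, beside 5.36% and 5.79% of all genes, with a median of 0.12. Zfp52, on chromosome 17 and among the most abundant of the genes, read 31, 30.01 and 35.8 CPM in Mock and 59.2, 56 and 52.9 CPM in AOA+Asp (0.80 ± 0.11, adjusted p = 9.0e-05, 0.64 after correction). Its AOA libraries stood at 35.8, 36.3 and 43.6 CPM. Zfp51, which lies in the same chain, read 9.14, 10.3 and 12.2 CPM in Mock and 20.01, 16.1 and 17.5 CPM in AOA+Asp (0.76 ± 0.14, adjusted p = 0.0024). In both genes the AOA+Asp libraries lay above every Mock library. The other 2 of the 4 largest rises, Zfp708 and Zfp960, are among the 19 genes with shared sequence. The count of 13 became 33 when only these 2 groups were fitted, and 6 to 8 when Mock replicate 1 or 2 or AOA+Asp replicate 1 or 3 was left out.

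Zinc finger RNA was broadly lower after HT-DNA transfection. Relative to Mock, 9 genes were higher and 68 lower, beside 24.2% and 24% of all genes, with a median log2 fold change of -0.37 (all genes -0.01). After correction 12 were higher and 47 lower, beside 21.3% and 22.4% of all genes, and the median was -0.21. In 92 genes all 3 HT-DNA libraries lay below all 3 Mock libraries and in 12 above, where 30.6% of all genes did so in each direction. Without Mock replicate 1 or 2 the number of genes higher was 5.

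Zfp773 had the largest fall, from 10.5, 9.1 and 10.6 CPM in Mock to 3.49, 2.84 and 3.71 CPM with HT-DNA (-1.59 ± 0.15, adjusted p = 6.2e-07, -1.33 after correction). Zfp169 read 2.96, 2.66 and 2.85 CPM in Mock and 1.16, 1.09 and 1.53 CPM with HT-DNA (-1.15 ± 0.19, adjusted p = 1.2e-04). Zfp382 read 4.02, 3.42 and 3.18 CPM in Mock and 1.41, 1.56 and 1.92 CPM with HT-DNA (-1.11 ± 0.31, adjusted p = 0.0072). In none of the 3 did a treated library reach the Mock range. Zfp951, which was higher with AOA alone, had a log2 fold change of -1.12 ± 0.29, adjusted p = 0.0045 with HT-DNA. Few genes went up. Zfp930 read 7.53, 8.74 and 9.82 CPM in Mock and 13.6, 14.5 and 14 CPM with HT-DNA (0.69 ± 0.14, adjusted p = 8.6e-04), and Zfp948 read 32.8, 33.5 and 34.9 CPM in Mock and 43.6, 43.2 and 43.1 CPM with HT-DNA (0.36 ± 0.09, adjusted p = 0.0043). Both were higher in every HT-DNA library than in any Mock library. Zfp707 (0.43 ± 0.12, adjusted p = 0.0056) stood at 0.10 after correction (adjusted p = 0.53), and Zfp960 is of shared sequence.

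AOA given before HT-DNA raised zinc finger RNA relative to HT-DNA alone. HT-DNA+AOA minus HT-DNA gave 64 higher and 5 lower, beside 22.8% and 22.7% of all genes, with a median log2 fold change of 0.34 (all genes 0.02). After correction 66 were higher and 12 lower, beside 27.6% and 23.7% of all genes, and the median was 0.26. The spread within HT-DNA+AOA bears on this result. From 48 to 78 genes were higher when 1 library was left out, and the median was 0.23 without HT-DNA+AOA replicate 1 and 0.45 without its replicate 3. The number lower was 9 without its replicate 1 and 3 without its replicate 2. With only these 2 groups in the fit 34 were higher and 3 lower.

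Zfp58, which shares 50.7% of its sequence with other genes, ranked highest. Among genes free of that doubt the largest rise was in Zfp599, from 3.34, 4.03 and 4.59 CPM to 16.5, 12.1 and 7.57 CPM (1.60 ± 0.23, adjusted p = 1.2e-05). All 3 HT-DNA+AOA libraries lay above HT-DNA, with replicate 1 the highest and replicate 3 the lowest, in the order of the summed level. Zfp712 and Zfp109 rose from low levels, Zfp712 from 0.606, 0.568 and 0.262 CPM to 1.2, 1.13 and 1.73 CPM and Zfp109 from 0.455, 0.663 and 0.699 CPM to 1.99, 1.49 and 1.55 CPM. Zfp84 rose from 7.58, 9.57 and 9.87 CPM to 23.2, 19.3 and 17.3 CPM (1.14 ± 0.11, adjusted p = 1.2e-07), with no overlap. The 5 genes that went down, Zfp324, Zfp944, Zfp667, Zfp9 and Zfp30, were also lower with AOA alone. Zfp324 read 13.7, 11.5 and 10.9 CPM with HT-DNA and 4.54, 5.54 and 7.28 CPM with HT-DNA+AOA (-1.06 ± 0.16, adjusted p = 2.8e-05). Without HT-DNA it read 11.6, 10.2 and 13.5 CPM in Mock and 5.85, 7.21 and 7.73 CPM in AOA (-0.77 ± 0.16, adjusted p = 6.4e-04). Both drops were without overlap between libraries. Zfp944 read 13.9, 13.8 and 13.7 CPM with HT-DNA and 7.57, 8.27 and 7.63 CPM with HT-DNA+AOA (-0.82 ± 0.11, adjusted p = 6.1e-06). In HT-DNA minus Mock neither gene passed the threshold, with 0.03 ± 0.15, adjusted p = 0.9 for Zfp324 and 0.16 ± 0.10, adjusted p = 0.22 for Zfp944. The calls of Zfp667 and Zfp30 in HT-DNA+AOA minus HT-DNA were lost when single libraries were left out, with an adjusted p of up to 0.10 for Zfp667 (without HT-DNA+AOA replicate 2) and 0.21 for Zfp30 (without HT-DNA replicate 3).

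In the presence of HT-DNA, aspartate added to AOA gave no clear net direction. HT-DNA+AOA+Asp minus HT-DNA+AOA gave 29 higher and 20 lower, beside 23.7% and 23.9% of all genes, and the median was 0.06 (all genes -0.01). After correction 22 were higher and 33 lower, beside 24.1% and 26.9% of all genes, and the median was -0.09. With library totals, which set the median of all genes to 0.08, 41 were higher and 12 lower, beside 29.4% and 17.9%. Without HT-DNA+AOA replicate 1, 50 genes were higher and the median was 0.24. With only these 2 groups in the fit 15 were higher and 12 lower.

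Single genes moved well beyond their replicates in this comparison. Zfp667 rose from 1.04, 0.77 and 0.775 CPM to 1.64, 2.41 and 2.23 CPM (1.27 ± 0.23, adjusted p = 1.6e-04), and Zfp773 from 3.24, 2.52 and 2.09 CPM to 6.14, 5.87 and 6.72 CPM (1.25 ± 0.16, adjusted p = 6.6e-06). Zfp30 (1.08 ± 0.13) and Zfp9 (1.07 ± 0.16) followed. Zfp324 rose to 9.09, 10.4 and 10.6 CPM (0.80 ± 0.16, adjusted p = 6.3e-04). In Zfp667, Zfp773 and Zfp324 every library with aspartate lay above every library without it. Zfp768, one of the 8 genes without a listed KRAB domain, fell from 29.99, 36.5 and 41.1 CPM to 22.1, 19.7 and 21.4 CPM (-0.77 ± 0.09, adjusted p = 2.6e-06). Zfp84 fell to 11.7, 11.4 and 12.8 CPM (-0.74 ± 0.11, adjusted p = 2.5e-05) and Zfp930 from 22.7, 24.5 and 21.6 CPM to 13, 14.7 and 14 CPM (-0.73 ± 0.14, adjusted p = 2.9e-04). In these 3 no library overlapped either. Zfp433, which had the largest fall, is of shared sequence.

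With both AOA and aspartate, cells that received HT-DNA had higher zinc finger RNA than cells with HT-DNA alone. HT-DNA+AOA+Asp minus HT-DNA gave 86 higher and 2 lower, beside 23.2% and 23.5% of all genes, with a median log2 fold change of 0.49 (all genes 0.00). After correction 54 were higher and 6 lower, beside 19.2% and 18% of all genes, and the median was 0.26. Of the 68 genes lower with HT-DNA, 60 were higher here and 31 were higher in HT-DNA+AOA minus HT-DNA. All 3 comparisons use the HT-DNA libraries, and the joint counts over all genes were not taken. Zfp773 rose above HT-DNA (0.90 ± 0.16, adjusted p = 2.7e-04) and still stood below every Mock library. The 4 largest rises were in Zfp712 (1.31 ± 0.36), Zfp619 (1.24 ± 0.36), Zfp872 (1.22 ± 0.40) and Zfp109 (1.22 ± 0.31), of which Zfp872 lost its call without HT-DNA replicate 3 (adjusted p = 0.090). The 2 genes lower were Zfp948 (-0.32 ± 0.09, adjusted p = 0.0097) and Zfp282 (-0.20 ± 0.07, adjusted p = 0.025). The call of Zfp948 was lost without HT-DNA+AOA+Asp replicate 1 (adjusted p = 0.062), and that of Zfp282 without 4 of the 6 libraries (adjusted p of up to 0.092, without HT-DNA+AOA+Asp replicate 3).

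The difference between the AOA effects with and without HT-DNA leaned above 0 as measured, but the number of genes called depended on the correction and on single libraries. The interaction of AOA and HT-DNA, which is the AOA effect with HT-DNA minus that without, was above 0 in 30 genes and below 0 in 1 at an adjusted p under 0.05, beside 7.23% and 8.26% of all genes, and its median was 0.42 (all genes 0.01). After correction the counts were 15 and 1, beside 9.28% and 8.1% of all genes, so that the share above 0 was no longer higher than in all genes, and the median was 0.28. With only the 4 groups of the interaction in the fit 9 were above 0. The count of 30 was 10 without AOA replicate 2, 65 without HT-DNA+AOA replicate 3, and 13 to 18 without Mock replicate 1, 2 or 3, HT-DNA replicate 1 or 3, or HT-DNA+AOA replicate 1 or 2. Zfp382 had the largest value (1.90 ± 0.45, adjusted p = 0.01). Without HT-DNA it went from 4.02, 3.42 and 3.18 CPM in Mock to 1.76, 1.89 and 1.69 CPM in AOA, with no overlap. With HT-DNA it read 1.41, 1.56 and 1.92 CPM before and 4.86, 2.77 and 1.55 CPM after AOA, and the lowest of these lay within the HT-DNA range. Zfp933 (1.07 ± 0.28, adjusted p = 0.018) read 6.14, 7.25 and 5.79 CPM in Mock and 4.14, 3.05 and 3.61 CPM in AOA, but 3.13, 2.7 and 3.32 CPM with HT-DNA and 4.75, 3.13 and 2.86 CPM with HT-DNA+AOA. It was thus lower with AOA in the first pair, and in the second the libraries overlapped. No gene was higher with AOA alone and lower in HT-DNA+AOA minus HT-DNA, where only 5 genes were lower in all. Joint counts over all genes were not taken here either. Of the 168, 19 were higher in both, and Zfp382, Zfp65 and Zfp959 were lower in the first and higher in the second.

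**Figure D2:**
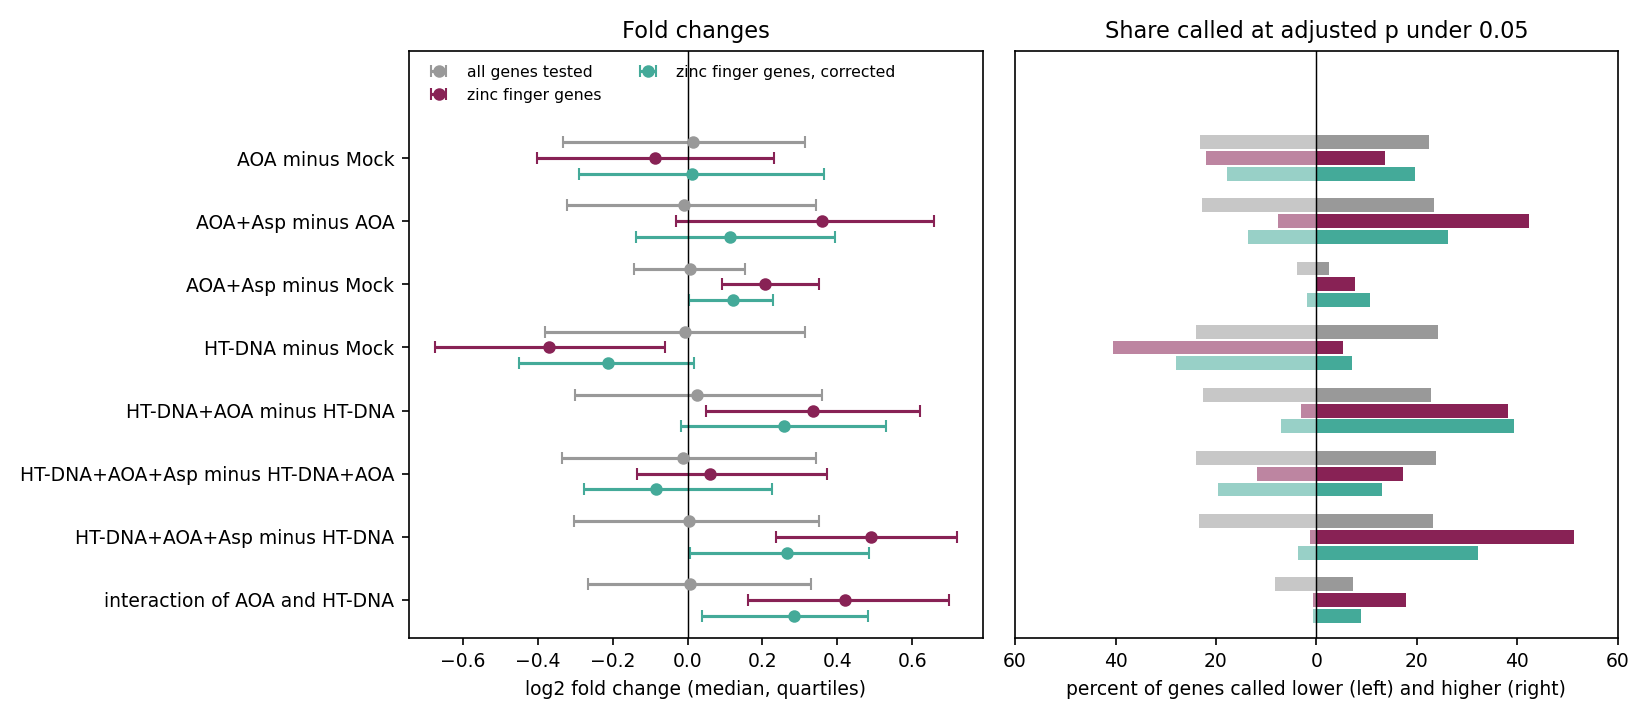
Left, median and quartiles of the log2 fold change in each comparison for all 14263 genes tested (grey) and the 168 zinc finger genes as measured (purple) and after the GC content and length correction (green); right, the percent of each set called lower (drawn to the left, paler) or higher (to the right). HT-DNA minus Mock has its zinc finger median at -0.37 as measured and -0.21 corrected, and in AOA minus Mock and HT-DNA+AOA+Asp minus HT-DNA+AOA the sign of the median turns with the correction.

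**Figure D3:**
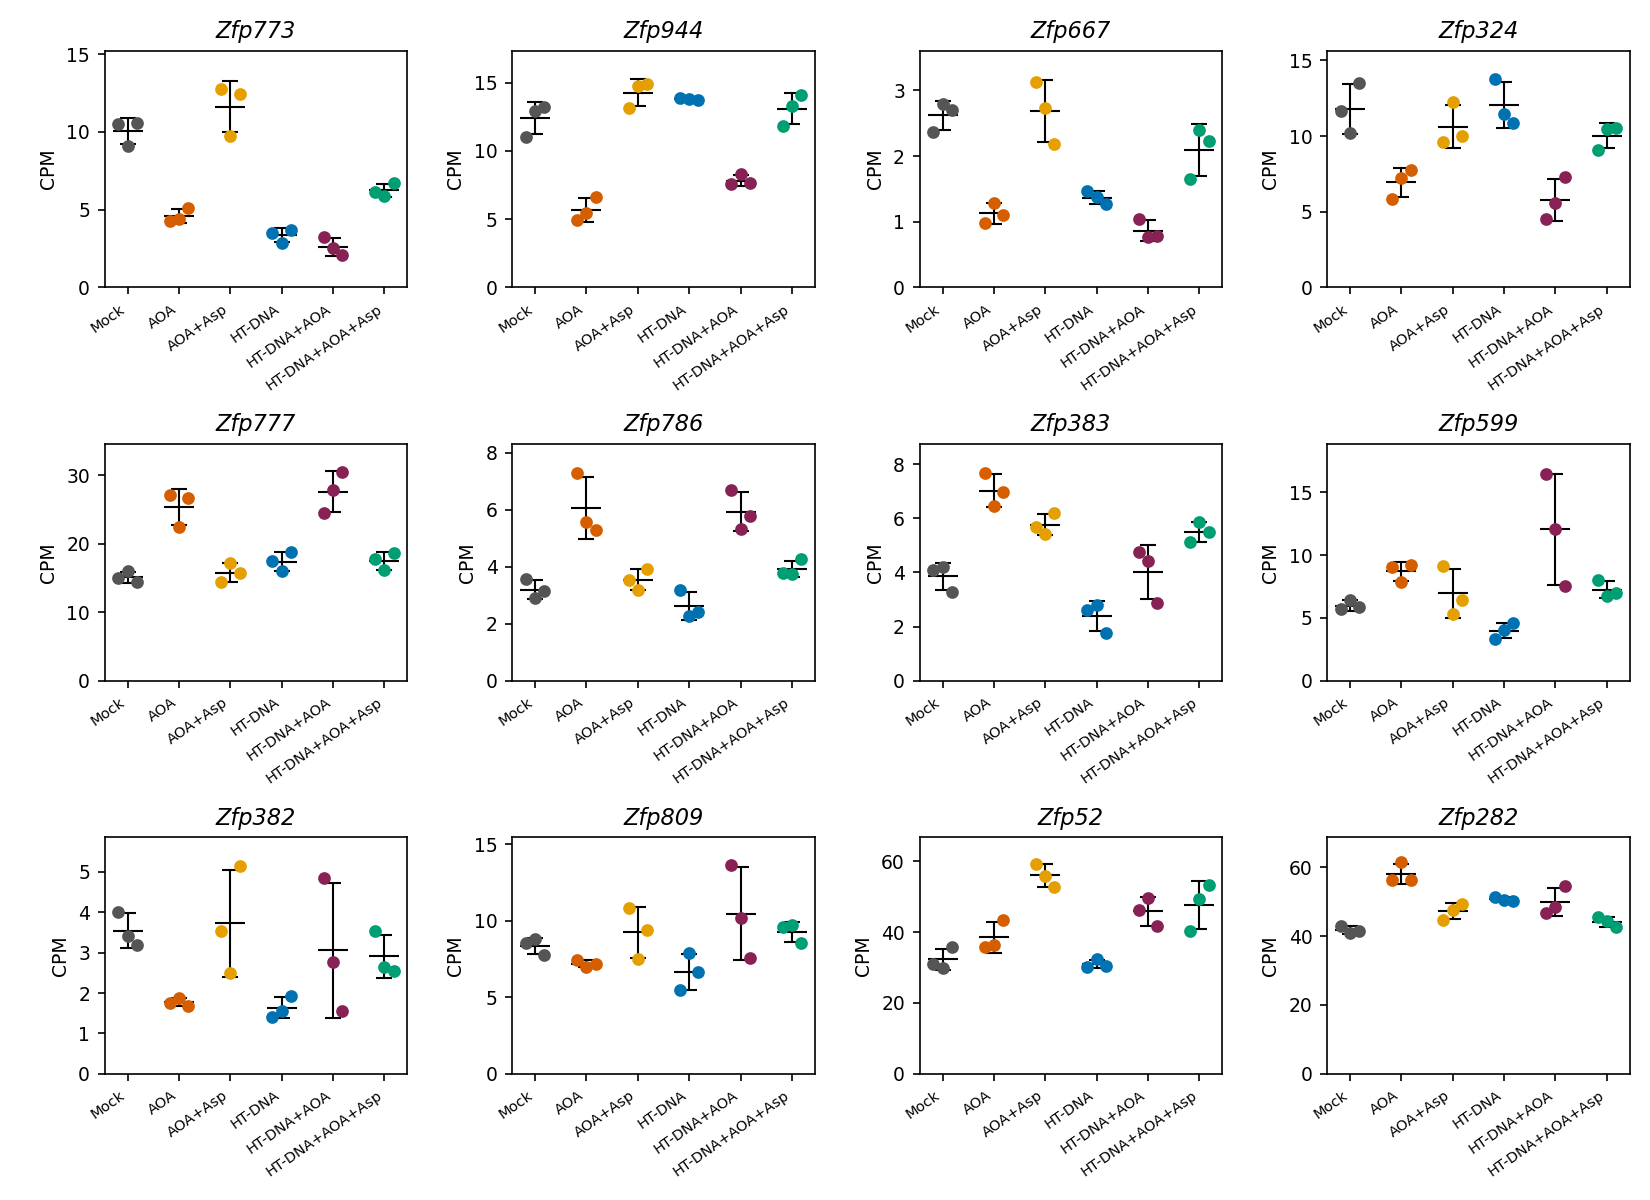
CPM (linear axes from 0) of 12 of the named zinc finger genes in every library (points), with group mean and SD (bars). Zfp944 and Zfp324 are low in both AOA groups without aspartate, Zfp773 and Zfp382 are low with HT-DNA, and Zfp599 and Zfp382 spread widely within HT-DNA+AOA.

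With AOA, and with aspartate on top of it, zinc finger genes of low and high GC content had medians of opposite sign, and so had other genes of the same GC content. In AOA+Asp minus AOA the 56 genes of lowest GC content (34.9% to 40.01%) had a median of 0.65, with 37 higher and 0 lower, beside a median of 0.27 in the 962 other genes in that range; the 56 of highest GC content (44.8% to 59.7%) had a median of -0.05, with 13 higher and 12 lower, beside -0.07 in 9566 other genes. With HT-DNA both ends of the range had medians below 0. The 56 low-GC genes had a median of -0.17, with 3 higher and 15 lower, beside -0.20 in the others. The high-GC zinc finger genes had a median of -0.32, with 4 higher and 24 lower, while the other genes in that range had a median of 0.05. In HT-DNA+AOA minus HT-DNA the high-GC genes had a median of 0.33, with 22 higher and 2 lower, beside -0.03 in the others, and in HT-DNA+AOA+Asp minus HT-DNA a median of 0.46, with 28 higher and 1 lower, beside -0.09. Of the 56 genes between, 2 were higher and 29 lower with HT-DNA, with a median of -0.50 beside -0.24 in the others.

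**Figure D4:**
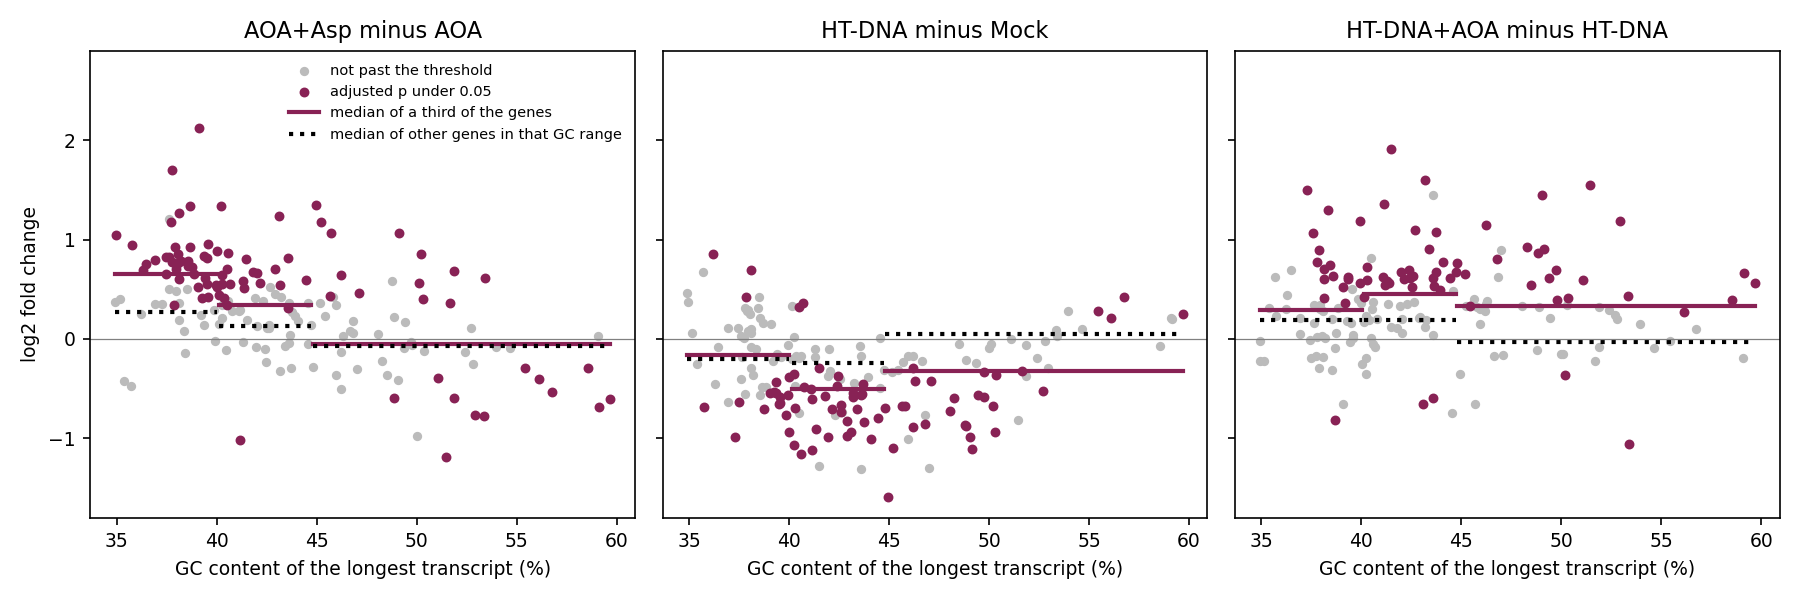
Log2 fold change of each of the 168 zinc finger genes against the GC content of its longest transcript in 3 comparisons, coloured where the adjusted p is under 0.05; solid lines are medians of 3 sets of 56 genes by GC content and dotted lines medians of other genes in the same GC range. In HT-DNA minus Mock the high-GC set lies at -0.32 and the other genes at 0.05.

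The same contrast was looked at in related genes. The 119 other tested genes with KRAB and C2H2 domains, outside the rule, had a median of 0.01 in HT-DNA minus Mock, with 18 higher and 22 lower, and 0.23 in HT-DNA+AOA+Asp minus HT-DNA, with 29 higher and 3 lower. After correction these medians were 0.10, with 22 higher and 14 lower, and 0.05, with 18 higher and 12 lower. In AOA+Asp minus AOA their median was 0.39, with 43 higher and 8 lower, beside 0.36 for the 168, and after correction 0.17, with 33 higher and 19 lower, beside 0.11 for the 168. The shares over all genes are those given with each comparison above. The 182 other genes named Zfp had medians of -0.07, 0.14 and 0.14 in these 3 comparisons. Among the 151 zinc finger genes with a promoter window, the 42 with the ZNF143 core had a median of -0.55 in HT-DNA minus Mock, with 24 lower (57.1%) and 0 higher, and the 109 without it -0.31, with 37 lower (33.9%) and 6 higher. In HT-DNA+AOA minus HT-DNA their medians were 0.40 and 0.32. These differences between subsets were not tested. The values by ZNF143 core are given without the correction, and median GC content was 43.3% in the 42 genes and 41.4% in the 109.

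The chains of neighbouring genes had different medians, a difference that was not tested. Chain values are given as measured, without the correction, and the shares over all genes are those given with each comparison above. The 15 genes of the Zfp160 to Zfp13 chain on chromosome 17, which includes Zfp51, Zfp52, Zfp944 and Zfp948, had a median of -0.46 with AOA (0 higher, 8 lower) and 0.78 with aspartate on top of it (13 higher, 0 lower), but 0.01 with HT-DNA (1 higher, 2 lower). The 13 genes from Zfp84 to Zfp382 on chromosome 7 had a median of 0.29 with AOA (4 higher, 3 lower) and -0.47 with HT-DNA (0 higher, 9 lower). The 7 genes from Zfp786 to Zfp746 on chromosome 6, which have a median GC content of 54.7% and include Zfp282, Zfp398 and Zfp777, had medians of 0.47 with AOA (4 higher, 0 lower) and 0.20 with HT-DNA (2 higher, 0 lower). The 7 genes from Zfp667 to Zfp772 on chromosome 7, with Zfp773 and Zfp418 among them, had medians of -0.71 with AOA and -0.68 with HT-DNA (0 higher in both, 4 and 5 lower). GC content differs between the chains and was not separated from position here. Its median was 38.5% in the Zfp160 to Zfp13 chain. The 962 other genes with a GC content of 34.9% to 40.01% had medians of -0.11 with AOA and 0.27 with aspartate on top of it.

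**Figure D5:**
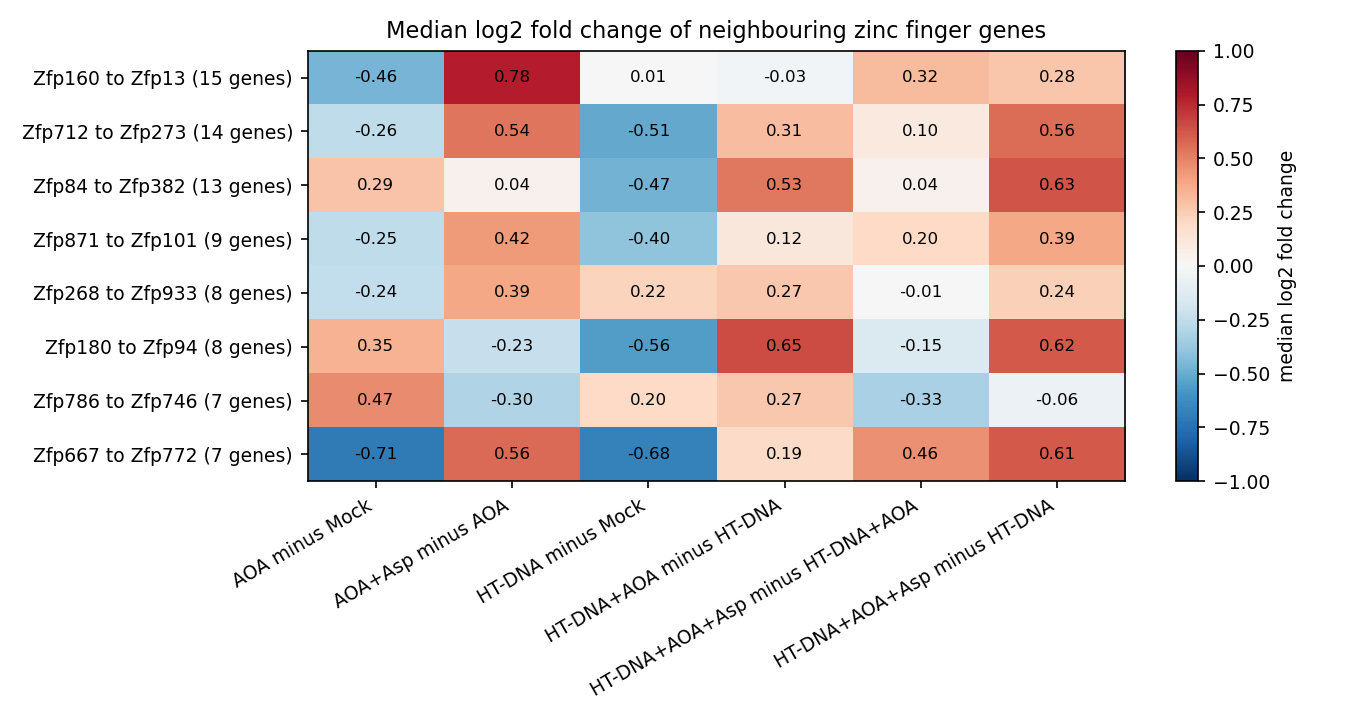
Median log2 fold change as measured (colour and number) of the 8 largest chains of neighbouring zinc finger genes in 6 comparisons, chains ordered by size. The 15 genes from Zfp160 to Zfp13 stand at -0.46 with AOA and 0.01 with HT-DNA, and the 7 from Zfp667 to Zfp772 at -0.71 and -0.68.

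The 6 genes with the highest CPM lay between 4.74 CPM per kilobase of transcript (Zfp398) and 19.3 (Zfp746). Zfp746, also called PARIS, a repressor of the gene for PGC-1α, read 57.2, 60.2 and 59.8 CPM in Mock and 83.1, 81.5 and 84.6 CPM in AOA (0.49 ± 0.06, adjusted p = 5.0e-06). With aspartate it stood at 60.5, 63.9 and 63.7 CPM (-0.41 ± 0.06, adjusted p = 4.5e-05). With HT-DNA it stood at 68.9, 66.7 and 70.1 CPM (0.22 ± 0.06, adjusted p = 0.0094), and at 0.01 after correction (adjusted p = 0.88). Zfp871 went from 105, 97.4 and 83.2 CPM in Mock to 46.2, 54.6 and 48.6 CPM with HT-DNA (-0.93 ± 0.20, adjusted p = 0.0014), and its corrected value was -0.33 (adjusted p = 0.0059). Zfp282 was the 1 gene with a negative interaction (-0.50 ± 0.10, adjusted p = 0.0037). It read 43.1, 40.9 and 41.5 CPM in Mock and 56.3, 61.4 and 56.3 CPM in AOA, and 51.4, 50.5 and 50.1 CPM with HT-DNA and 46.8, 48.4 and 54.4 CPM with HT-DNA+AOA. AOA thus raised it without HT-DNA. With HT-DNA the libraries overlapped, and the log2 fold change turned from -0.02 to 0.23 with the correction (adjusted p = 7.9e-04), so no direction is given there. Zfp275 in HT-DNA minus Mock turned from -0.22 ± 0.10, adjusted p = 0.092 to 0.18 with the correction and Zfp398 from -0.31 ± 0.13, adjusted p = 0.054 to 0.22, so no direction is given for them.

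Of 11 zinc finger genes listed for a known role, 6 were among the 168. Zfp809, which silences murine leukaemia virus-like retroelements, read 5.46, 7.86 and 6.64 CPM with HT-DNA and 13.6, 10.2 and 7.57 CPM with HT-DNA+AOA (0.65 ± 0.18, adjusted p = 0.0051), and the libraries overlapped. Zfp568, which silences a placental transcript of Igf2, read 38.9, 38.6 and 31.1 CPM in Mock and 26.5, 26.4 and 28.1 CPM with HT-DNA (-0.42 ± 0.14, adjusted p = 0.02), with a corrected value of 0.00, and its call was lost without 3 of the 6 libraries (adjusted p of up to 0.078, without Mock replicate 1). Zfp30 had log2 fold changes of -0.51 ± 0.13, adjusted p = 0.0029 with AOA and -0.68 ± 0.13, adjusted p = 3.7e-04 with HT-DNA, where its libraries read 3.49, 3.55 and 4.28 CPM against 6.3, 6.62 and 5.22 CPM in Mock. Zfp69, a candidate gene for diabetes in mice, fell with AOA (-0.75 ± 0.21, adjusted p = 0.008). Zfp961 passed the threshold in none of the 8 comparisons, and Zfp708 shares all of its 31-base sequences with other genes.

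The co-repressor machinery that KRAB domains recruit was measured as a list of 25 genes. In AOA minus Mock 2 were higher and 13 lower, beside 22.5% and 23.2% of all genes, and after correction also 2 and 13. In AOA+Asp minus AOA 14 were higher and 2 lower, beside 23.4% and 22.8% of all genes, and after correction 14 and 3. In AOA+Asp minus Mock none passed the threshold in edgeR, beside 2.52% higher and 3.95% lower of all genes. At an unadjusted p under 0.05 in edgeR 6 were higher and 1 lower, and DESeq2 called 3 higher and 1 lower. For those 2 rules no share over all genes is given. After correction 3 were higher and 0 lower, beside 5.36% and 5.79% of all genes. The other corrected shares over all genes are those given with each comparison above. In HT-DNA minus Mock 6 were higher and 13 lower, beside 24.2% and 24% of all genes, but after correction 8 and 7. HT-DNA+AOA minus HT-DNA gave 5 higher and 9 lower, beside 22.8% and 22.7% of all genes, with 7 and 13 after correction. With library totals the counts were 0 and 9, beside 20.2% and 25.4% of all genes. HT-DNA+AOA+Asp minus HT-DNA+AOA gave 16 higher and 3 lower, beside 23.7% and 23.9% of all genes, and 13 and 7 after correction. Trim28, the scaffold, read 286, 289.74 and 287 CPM in Mock and 382, 372 and 409 CPM with HT-DNA (0.43 ± 0.08, adjusted p = 2.4e-04, 0.12 after correction). With HT-DNA+AOA it read 219, 244 and 281 CPM (-0.64 ± 0.08, adjusted p = 1.5e-06, -0.31 after correction). Neither pair of groups overlapped. Without HT-DNA, AOA left it at 259, 282 and 267 CPM (-0.10 ± 0.08, adjusted p = 0.33). Setdb1, the methyltransferase, read 96.2, 94.4 and 86.7 CPM in Mock and 63.9, 66.7 and 58.7 CPM with HT-DNA (-0.55 ± 0.10, adjusted p = 3.1e-04), and the HP1 gene Cbx5 read 485, 469.71 and 414 CPM in Mock and 205, 249 and 224 CPM with HT-DNA (-1.01 ± 0.15, adjusted p = 5.6e-05). Both fell without overlap, and the corrected values were -0.27 and -0.45. Of the other HP1 genes, Cbx1 fell less with HT-DNA as measured (-0.18 ± 0.06, adjusted p = 0.026). Its call was lost after correction (-0.10, adjusted p = 0.087) and without 4 of the 6 libraries. Cbx3 did not pass the threshold as measured (0.11 ± 0.07, adjusted p = 0.20) and was 0.21 after correction (adjusted p = 0.0036). Atrx, a chromatin remodeller that deposits H3.3 together with Daxx, fell with AOA (-0.78 ± 0.16, adjusted p = 8.0e-04, -0.45 after correction) and with HT-DNA (-0.79 ± 0.16, adjusted p = 8.9e-04, -0.22 after correction). Daxx did not pass the threshold with AOA (-0.11 ± 0.10, adjusted p = 0.41). It rose with HT-DNA as measured (0.48 ± 0.10, adjusted p = 9.1e-04), but the call was lost after correction (0.16, adjusted p = 0.10). Chd4, of the NuRD complex, fell with AOA (-0.64 ± 0.08, adjusted p = 1.8e-06, -0.53 after correction). In the HUSH complex Tasor read 9.73, 9.24 and 9.78 CPM in Mock and 4.86, 4.12 and 4.71 CPM in AOA (-1.07 ± 0.23, adjusted p = 0.0011, -0.77 after correction), with no overlap. Mphosph8 of that complex also fell with AOA (-0.58 ± 0.13, adjusted p = 0.0017, -0.54 after correction). Pphln1 did not pass the threshold (-0.03 ± 0.10, adjusted p = 0.84, 0.02 after correction).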

How the data were processed

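RNA was extracted with TRIzol from 18 cultures of L929 cells, 6 groups of 3, and sequenced. The authors deposited 1 table of counts per gene that was taken to hold expected counts, since some values are not whole numbers, as when reads that match several genes are divided between them. The aligner, counter, genome build and strand setting are not given in the sources used here. The 6 columns of group means in the table were not used.

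Expected counts were rounded to whole numbers. Genes were kept by edgeR's filterByExpr (minimum count 10, minimum total 15), which left 14263, and scaled by TMM (factors 0.918 to 1.065). The quasi-likelihood test (edgeR 4.0.16, robust, R 4.3.3) was fitted to all 18 libraries, with Benjamini-Hochberg adjustment over all genes and a threshold of 0.05. Calls without qualification come from this fit. For the GC content and length correction, a loess trend (span 0.3) of each library's log2 CPM on transcript GC content and then on length entered the same test as an offset. GC content and length are those of the longest transcript in GENCODE vM21, which held 51884 of the 57180 gene identifiers and all 168 zinc finger genes. Levels are TMM-scaled CPM.

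The zinc finger genes and the gene lists were chosen with earlier results of these data known. The text names, for each comparison, the 4 largest rises and the 4 largest falls among genes past the threshold whose higher group averages 1 CPM or more and whose replicates, except for the interaction, do not overlap, the 6 zinc finger genes of highest mean CPM, genes of known role and the co-repressor list. Zfp944, Zfp324, Zfp84, Zfp933 and Zfp773 are also described in comparisons where the rule did not name them, chosen after their values were seen. Alternatives were DESeq2 1.42.0, RLE scaling, library totals, 3 other filters, fits of only the libraries compared, the correction, a replicate block and leaving out each library. Replicate libraries differed by more than sampling noise (chi-square per degree of freedom 2.72 to 62.4), so none was counted as a duplicate. Promoter windows are from RefSeq (GRCm38.p6).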

Additional observations from a re-analysis of the deposited data

Results flagged for a closer look

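Zinc finger genes and co-repressor genes are given here where the interaction term in edgeR's quasi-likelihood fit passed an adjusted p of 0.05, that is, where the AOA effect with HT-DNA differed from the AOA effect without it. Of the 168 zinc finger genes, the interaction was above 0 in 30 and below 0 in 1, beside 7.23% and 8.26% of all genes. After the GC content and length correction the counts were 15 and 1, beside 9.28% and 8.1%. The sign does not give the size of the AOA effect. Atrx, with a value above 0, had AOA effects of -0.78 without and -0.02 with HT-DNA. Trim28, with a value below 0, had -0.10 and -0.64. Among the named genes the differences on the log2 scale were 1.90 for Zfp382, 1.71 for Zfp712, 1.59 for Zfp418, 1.22 for Zfp953, 1.09 for Zfp85, 1.07 for Zfp933, 1.06 for Zfp599, 0.87 for Zfp809, 0.78 for Zfp773, 0.71 for Zfp84 and -0.50 for Zfp282. Among the co-repressor genes they were 0.76 for Atrx, 0.66 for Mphosph8, 0.55 for Trim33, -0.38 for Uhrf1, a protein that reads H3K9 methylation, and -0.55 for Trim28. After the GC content and length correction the values for Atrx, Trim28, Uhrf1 and Trim33 were 0.25, -0.24, -0.20 and 0.16, and the calls of Trim33 (adjusted p = 0.12), Zfp953 (0.11), Zfp85 (0.087), Zfp773 (0.064) and Zfp712 (0.053) were lost. Single libraries decided several of these. The 12 libraries were removed singly, and the highest adjusted p reached is given in parentheses. The call was lost 10 times for Zfp953 (0.14, without HT-DNA+AOA replicate 1) and Trim33 (0.11, without HT-DNA replicate 1). For Atrx it was lost 9 times (0.093, without HT-DNA replicate 1). For Zfp418 (0.076, without Mock replicate 1) it was lost 6 times. It was also lost 6 times for Zfp809 (0.071) and Mphosph8 (0.073), both highest without HT-DNA replicate 1. For Zfp712 it was lost 4 times (0.077, without HT-DNA replicate 3).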

How the results depend on the processing

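For each of the 8 comparisons the numbers of zinc finger genes higher and lower and their median log2 fold change were recomputed, 24 values in all. RLE scaling, both stricter count filters and the replicate block left 24 of 24 within 1.5 times the count or 1 SD of the median. DESeq2 left 23, with 3 lower in HT-DNA+AOA minus HT-DNA, and no filter left 23, with 1 lower in HT-DNA+AOA+Asp minus HT-DNA. Restriction to the 149 genes of at most 50% shared sequence and to the 160 with a KRAB domain, both chosen after seeing the data, left 24 of 24.

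Library totals gave a median of -0.22 in AOA minus Mock, 4 higher and a median of -0.48 in HT-DNA minus Mock, 8 lower in HT-DNA+AOA minus HT-DNA, 12 lower in HT-DNA+AOA+Asp minus HT-DNA+AOA and 1 lower in HT-DNA+AOA+Asp minus HT-DNA. Over all genes the medians were -0.12 in AOA minus Mock and -0.12 in HT-DNA minus Mock, where 16.9% were higher. The shares of all genes lower in the other comparisons, in the same order, were 25.4%, 17.9% and 20.3%. Fits of only the libraries compared gave 33 higher in AOA+Asp minus Mock, 34 higher and 3 lower in HT-DNA+AOA minus HT-DNA, 15 higher and 12 lower in HT-DNA+AOA+Asp minus HT-DNA+AOA, 4 lower in HT-DNA+AOA+Asp minus HT-DNA and 9 above 0 in the interaction. For these fits, and for those that leave out a library, shares over all genes are not given here or above.

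The GC content and length correction, with the value of the same correction in a fit with the replicate block after each in parentheses, turned the median to 0.013 (0.015) in AOA minus Mock and to -0.085 (-0.085) in HT-DNA+AOA+Asp minus HT-DNA+AOA, where 33 (36) were lower. It gave 44 (45) higher, 23 (24) lower and a median of 0.11 (0.11) in AOA+Asp minus AOA, 3 (3) lower in AOA+Asp minus Mock and a median of -0.21 (-0.21) in HT-DNA minus Mock, with 14 higher under the block. It gave 12 (11) lower in HT-DNA+AOA minus HT-DNA, 54 (55) higher, 6 (6) lower and a median of 0.26 (0.26) in HT-DNA+AOA+Asp minus HT-DNA, and 15 (18) above 0 with a median of 0.28 (0.29) in the interaction. It turned the sign of Zfp871 in AOA+Asp minus AOA to -0.011 (-0.00788), of Atf7ip, Zfp275, Zfp398 and Zfp568 in HT-DNA minus Mock to 0.11 (0.11), 0.18 (0.18), 0.22 (0.22) and 0.0037 (0.0084), of Zfp282 in HT-DNA+AOA minus HT-DNA to 0.23 (0.23), of Zfp398 in HT-DNA+AOA+Asp minus HT-DNA+AOA to -0.14 (-0.14), and of Trim28, Smarcad1, Zfp275 and Zfp746 in HT-DNA+AOA+Asp minus HT-DNA to 0.097 (0.097), -0.12 (-0.12), -0.33 (-0.33) and 0.22 (0.22). The cause was not tested.

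Without 1 library, the genes higher, the genes lower and the median ranged over 19 to 26, 27 to 35 and -0.13 to -0.043 in AOA minus Mock, 53 to 72, 11 to 13 and 0.27 to 0.44 in AOA+Asp minus AOA, 6 to 12, 0 to 0 and 0.17 to 0.28 in AOA+Asp minus Mock, 5 to 10, 50 to 67 and -0.39 to -0.36 in HT-DNA minus Mock, 48 to 78, 3 to 9 and 0.23 to 0.45 in HT-DNA+AOA minus HT-DNA, 21 to 50, 14 to 19 and -0.016 to 0.24 in HT-DNA+AOA+Asp minus HT-DNA+AOA, 64 to 76, 1 to 3 and 0.46 to 0.50 in HT-DNA+AOA+Asp minus HT-DNA, and 10 to 65, 1 to 3 and 0.31 to 0.55 in the interaction.

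Same-numbered libraries of different groups had a median correlation of deviations of -0.0012 over 45 pairs, and 14 were over 0.1. Of the 15 pairs of groups only AOA and HT-DNA+AOA had all 3 same-numbered correlations over 0.1 (0.388, 0.146 and 0.2). The labels do not say that a number marks a shared batch, and no comparison sets these 2 groups directly against each other, so the numbers were not taken to pair the samples. The block gave 31 above 0 and 1 below in the interaction, which uses both. With a median of 5.65 CPM, small differences in the genes below 1 CPM were not detectable at this depth.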
